A study of Mus musculus with 24 samples.

Results

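Keratins and the junction proteins of epithelial cells were followed at the level of messenger RNA in cultured mouse pancreatic ductal adenocarcinoma (PDAC) cells whose p53 was switched on, switched off, mutated or combined with editing of Pcyt2. The set has 10 of the 55401 genes in the count tables, taken by symbol: the type II keratins Krt7 and Krt8, the type I keratins Krt18, Krt19, Krt20 and Krt23, the adherens junction cadherin Cdh1, the adhesion molecule Epcam, and the tight junction claudins Cldn4 and Cldn7. The 24 libraries fall into 11 groups in 3 tables. KPsh cells carry a doxycycline-driven hairpin against Trp53, the gene for p53, so that p53 is restored off the drug; they were kept for 10 days off doxycycline (n = 3) or on it at 1 µg/ml (n = 3). KPnull cells have no p53 of their own and received a doxycycline-inducible construct for wild-type p53 (p53WT), p53 mutated in the first transactivation domain (TAD1m), in the second (TAD2m) or in both (TAD12m), or an empty vector. Each of these 5 groups has n = 2, and all of them, the vector cells included, were taken as treated with doxycycline at 1 µg/ml for 48 hours. KPsh cells that received a guide targeting Pcyt2 (sgPcyt2), alone or with a guide-resistant Pcyt2 cDNA (sgPcyt2+cDNA), were kept for 6 days off or on doxycycline, with n = 2 per group. The Pcyt2 enzyme makes CDP-ethanolamine, a precursor of the membrane lipid phosphatidylethanolamine.

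Keratins are the intermediate filament proteins of epithelial cells, and a filament is built from pairs of a type I and a type II keratin. Krt8 and Krt18 are the basic pair of simple epithelia such as the pancreatic ducts, with Krt7 and Krt19 added in ductal cells. Krt20 is best known from the gut epithelium. E-cadherin, the product of Cdh1, holds neighbouring epithelial cells together at adherens junctions through catenins, and claudins form the seal of tight junctions. Loss of Cdh1 and of keratins is a common readout of a shift from an epithelial to a mesenchymal state.

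Library totals were 9393966.5 to 12983420.5 counts for KPsh, 13657592 to 19431249.5 for KPnull and 13801514.5 to 17127760.5 for the Pcyt2 set. Neither the origin of replicates from separate cultures nor the clonality of a line is given in the labels, so a p-value reflects only how far these libraries spread, possibly for technical reasons. Trp53 followed the labels. It stood at 258 ± 5.85 CPM (counts scaled to library size) off and 21.1 ± 0.721 CPM on doxycycline in KPsh cells (SD, n = 3 each). The 4 introduced p53 forms gave group means of 527 to 668 CPM, against 5.33 CPM with vector. In sgPcyt2 cells Trp53 averaged 41.9 ± 0.317 CPM off and 20.9 ± 2.49 CPM on doxycycline (n = 2 each), and with the cDNA 92.0 ± 7.36 CPM off and 19.8 ± 0.646 CPM on it. Pcyt2 RNA averaged 19.5 and 28.5 CPM off and on the drug in sgPcyt2 cells, against 2197 and 2612 CPM with the cDNA. In unedited KPsh cells it averaged 86.3 CPM off and 109 CPM on doxycycline, so the cDNA cells held far more Pcyt2 RNA than unedited cells. RNA can persist after an edit, and these values do not measure the editing. The drug and p53 change together in the cells with the hairpin, and their effects on a gene cannot be told apart. In these bulk RNA samples, fewer cells of a type and less RNA per cell cannot be told apart either.

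Sox9, a transcription factor of ductal cells, lay at 10.9 to 23.8 CPM in KPsh cells, 0.824 to 2.02 CPM in KPnull cells and 6.96 to 53.4 CPM in the Pcyt2 set. This marker of the labelled cell type was thus low in KPnull cells. The whole list of 12 ductal and simple epithelial genes, which holds the 10 members, was not. It summed to 7064 to 13260 CPM in KPsh, 5199 to 8575 CPM in KPnull and 6680 to 11729 CPM in the Pcyt2 set. Of the 12 genes, 2, 3 and 4 were below 1 CPM in every library of these tables. Of the 10 fibroblast markers, 9 in KPsh, 10 in KPnull and 9 in the Pcyt2 set were below 1 CPM in every library, and the list summed to at most 9.38 CPM, most of it Pdgfra. Among them Col1a2, Dcn, Lum and Thy1 were listed at 0 throughout. Of the 8 immune markers, 6 were below 1 CPM in every library of each table, and the sum of 8.8 to 31.3 CPM was led by Csf1r. All but 1 of the 6 endothelial markers in the KPsh and Pcyt2 tables, and all 6 in the KPnull table, stayed below 1 CPM, with Cdh5 reaching 8.12 CPM in the Pcyt2 set. The 8 acinar markers summed to at most 7.11 CPM and the 6 endocrine markers to at most 0.0978 CPM.

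The type II keratins and Krt18 lie on chromosome 15 of mm10: Krt7 (ENSMUSG00000023039.17) from 101412449 to 101427789 on the plus strand, Krt8 (ENSMUSG00000049382.10) from 101996698 to 102004482 on the minus strand, and Krt18 (ENSMUSG00000023043.7) from 102028180 to 102032027 on the plus strand. The other type I keratins lie on chromosome 11 on the minus strand, Krt19 (ENSMUSG00000020911.14) from 100140810 to 100146120, Krt20 (ENSMUSG00000035775.2) from 99428403 to 99438150 and Krt23 (ENSMUSG00000006777.7) from 99477974 to 99493137. Cdh1 (ENSMUSG00000000303.12) spans 106603351 to 106670246 on the plus strand of chromosome 8 and Epcam (ENSMUSG00000045394.9) 87635979 to 87651106 on the plus strand of chromosome 17. Cldn4 (ENSMUSG00000047501.3) spans 134945119 to 134946934 on the minus strand of chromosome 5 and Cldn7 (ENSMUSG00000018569.12) 69965396 to 69967885 on the plus strand of chromosome 11. In the Pcyt2 table Cldn7 was counted for another transcript, from 69964779 to 69967810, with 904 exon bases in place of 1328, so its counts are not on the same footing across tables. Exons of an opposite-strand gene cover 1.09% of the exon bases of Krt7 and 5.16% of those of Krt8, and none of the other 8 members is covered. The deposited counts took reads of both strands, so reads from these stretches cannot be assigned to 1 strand. A processed copy, Krt8-ps, held at most 23.3 CPM, and reads may be split between it and Krt8. The transcript for which Krt7 was counted is annotated as a retained-intron transcript with a summed exon length of 3548 bases, so intron sequence entered the counts of Krt7 and its level per length depends on that choice.

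Krt8 and Krt18 lie side by side, and they and Krt7, farther along the same chromosome, rose, as given later, in KPsh cells off doxycycline and in KPnull cells with p53WT, while Krt20 did not. Krt19, on chromosome 11, rose as well. The bases before their starts are shown for that reason. The sequences are from RefSeq (GRCm38.p6), 5′ to 3′ on the gene's strand and without any base of the counted transcript. Capitals mark matches to GGGCGG or its reverse complement (GC box), CACCTG or its reverse complement (an E-box of the kind that Snail repressors bind) and TATAAA (a core promoter element).
Krt7, chr15:101412153-101412402, plus strand: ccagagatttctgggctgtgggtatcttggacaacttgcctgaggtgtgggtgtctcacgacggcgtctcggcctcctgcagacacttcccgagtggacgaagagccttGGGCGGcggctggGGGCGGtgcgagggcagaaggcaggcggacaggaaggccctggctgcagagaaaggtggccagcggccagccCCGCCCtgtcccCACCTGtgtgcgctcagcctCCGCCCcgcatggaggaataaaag
Krt8, chr15:102004483-102004592, minus strand: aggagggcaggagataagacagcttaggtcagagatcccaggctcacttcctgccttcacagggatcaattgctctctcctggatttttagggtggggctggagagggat
Krt18, chr15:102027966-102028179, plus strand: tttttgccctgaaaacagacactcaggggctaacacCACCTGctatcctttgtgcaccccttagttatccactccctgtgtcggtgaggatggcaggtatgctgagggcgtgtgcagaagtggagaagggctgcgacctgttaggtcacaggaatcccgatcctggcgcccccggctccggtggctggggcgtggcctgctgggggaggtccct
Krt20, chr11:99438154-99438403, minus strand: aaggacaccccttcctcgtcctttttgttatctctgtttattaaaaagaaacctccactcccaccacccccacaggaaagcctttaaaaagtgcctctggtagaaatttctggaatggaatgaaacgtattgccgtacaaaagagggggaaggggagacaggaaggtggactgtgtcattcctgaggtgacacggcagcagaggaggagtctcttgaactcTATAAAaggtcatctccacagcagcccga
The window of Krt7 holds 4 GC boxes, at -141, -128, -56 and -24 bases from the annotated start, and 1 CACCTG at -44. In Krt18 the CACCTG lies at -214, counted from the RefSeq start and not from the last base shown. The final 36 bases of the full Krt18 window belong to the counted transcript and are not shown. In Krt20 the TATAAA lies at -29. The full 250-base window of Krt8 has a CACCTG at -111, in the 140 bases that belong to the counted transcript and are not shown. Of 32851 mouse promoter windows of the same length, searched on both strands without overlap between the motifs marked here, 32.7% held a GC box, 17.2% a CACCTG and 12.4% a TATAAA. The p53 half-site, found in 7.13% of these windows, and the AP-1 site TGANTCA, found in 6.75%, had no match in the windows of Krt7, Krt8, Krt18 and Krt20; this says only that those letters are not in these windows. GC content was 66.0% for Krt7, 58.0% for Krt8, 60.4% for Krt18 and 48.0% for Krt20, beside a median of 52.4% over all windows. Windows were found for 8 of the 10 members, all but Krt19 and Cdh1.

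Across the 11 groups, 6 of the members (Krt7, Krt8, Krt18, Krt19, Krt20 and Cdh1) passed the filter on low counts in all 3 tables. Krt23 passed in the KPsh and KPnull tables, Epcam in the Pcyt2 table alone, and the claudins Cldn4 and Cldn7 in none. The 3 tables were normalized separately, so an order of levels across them is a description. Krt8 and Krt18 were abundant everywhere. Group means of Krt8 spanned 3.22-fold, between 4883 ± 23.1 CPM in sgPcyt2+cDNA cells off doxycycline and 1517 ± 250 CPM in TAD12m cells, and those of Krt18 spanned 2.0-fold, between 3438 ± 97.2 CPM in KPsh cells off doxycycline and 1717 ± 100 CPM in TAD12m cells. Below the top group of Krt18 came TAD2m at 2956 ± 50.8 CPM and p53WT at 2940 ± 89.3 CPM, whose libraries overlapped. A step separated them from the remaining groups, among which sgPcyt2+cDNA on and off doxycycline overlapped, and the run of sgPcyt2 off doxycycline, TAD1m, vector, KPsh on doxycycline and TAD12m overlapped neighbour by neighbour.

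Krt19 spanned 4.77-fold, between 3545 ± 93.8 CPM in KPsh cells off doxycycline and 743 ± 85.6 CPM in vector cells. At its low end sgPcyt2 cells on doxycycline, TAD1m, TAD12m and vector cells overlapped from neighbour to neighbour. Krt20 spanned 3.45-fold, between 383 ± 10.5 CPM in sgPcyt2 cells off doxycycline and 111 ± 0.0391 CPM in TAD1m cells, and its libraries overlapped between neighbours only for TAD2m and p53WT. Cdh1 spanned 3.15-fold, between 1284 ± 13.2 CPM in sgPcyt2 cells off doxycycline and 408 ± 10.2 CPM in the same cells on the drug. Its highest group overlapped with vector cells at 1280 ± 11.1 CPM, and sgPcyt2+cDNA cells off doxycycline, TAD2m and p53WT overlapped in a chain below them.

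Krt7 set the Pcyt2 libraries apart from the others. It stood at 989 ± 54 CPM off and 223 ± 15.7 CPM on doxycycline in KPsh cells, and at 138 to 551 CPM in the means of the KPnull groups. In the 8 libraries of the Pcyt2-edited KPsh cells it never passed 2.4 CPM. The libraries of sgPcyt2 cells on doxycycline held 3.0 counts of Krt7 each, at the floor of 3 counts. Krt23, the lowest of the 6 member keratins in the other 2 tables, was also near absent in the Pcyt2 set, with 0 to 5 counts per library, against 45.5 to 141.5 counts in KPsh and 205 to 407.5 in KPnull libraries. With thresholds chosen after the values were seen, 1869 genes had at least 100 CPM in every KPsh library, and only Krt7 and Flnc, which encodes the actin crosslinker filamin C, were below 5 CPM in every library of the Pcyt2 set. In the other direction, of 1591 genes at 100 CPM or more in every library of the Pcyt2 set, 0 were below 5 CPM in every KPsh library. These tables share no group, and the difference was not tested.

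**Figure D1:**
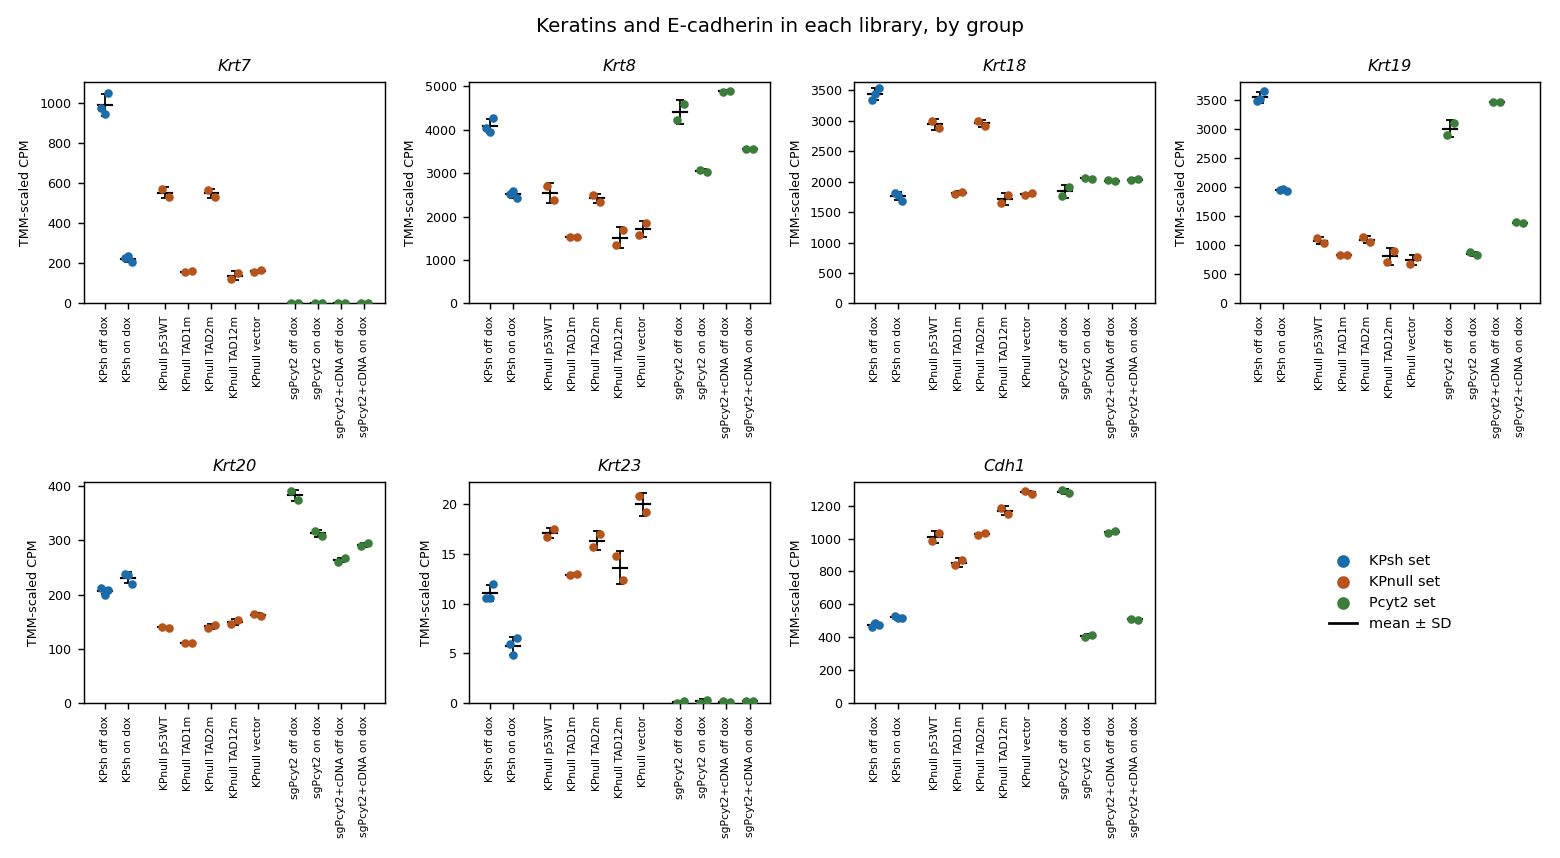
Level in CPM (linear axis starting at 0) of the 6 keratins and Cdh1, by group. Points are libraries and bars with whiskers are means ± SD; colours separate the KPsh, KPnull and Pcyt2 tables. Krt7 lies between 943 and 1048 CPM in KPsh cells off doxycycline and at no more than 2.4 CPM in the Pcyt2 set.

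The makeup of the keratin pool was compared on a scale per length, as CPM per kilobase of the counted transcript. Type II keratins summed to 2385 ± 98.5 and type I keratins to 4794 ± 127 CPM per kilobase in KPsh cells off doxycycline, against 1356 ± 43.0 and 2609 ± 54.4 on it. The ratio of type II to type I level was 0.497 ± 0.0123 off and 0.52 ± 0.00791 on doxycycline, and the libraries of the 2 groups did not overlap although both sums were higher off the drug. Krt18 made up 45.7% to 48.7% of the keratin level in the KPnull groups, Krt8 29.1% to 31.9% and Krt19 16% to 19.7%. In KPsh cells Krt19 had a share of 31.6% off and 31.4% on doxycycline, beside 33.6% and 31.2% for Krt18. No test was run on these shares.

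Krt7 was a small part of the pool. Its share was 3.88% off and 1.58% on doxycycline in KPsh cells. In KPnull cells it was 3.61% with p53WT and 3.62% with TAD2m, and 1.65% with TAD1m, 1.47% with TAD12m and 1.63% with vector. The pool of the Pcyt2 set had another balance. Krt8 led it with 39.9% off and 42.2% on doxycycline in sgPcyt2 cells and with 40.1% off and 42.6% on it with the cDNA. Krt19 had 33.8% of the pool off and 14.6% on doxycycline in sgPcyt2 cells, and 35.2% off and 20.6% on it with the cDNA, while Krt18 had 22.7% off and 38.7% on, and 22.5% off and 33.2% on. Krt19 thus exceeded Krt18 off doxycycline and was exceeded by it on the drug. The ratio of type II to type I was 0.665 ± 0.00949 off and 0.731 ± 0.00241 on doxycycline in sgPcyt2 cells, and 0.668 ± 0.0035 off and 0.743 ± 0.00293 on it with the cDNA.

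**Figure D2:**
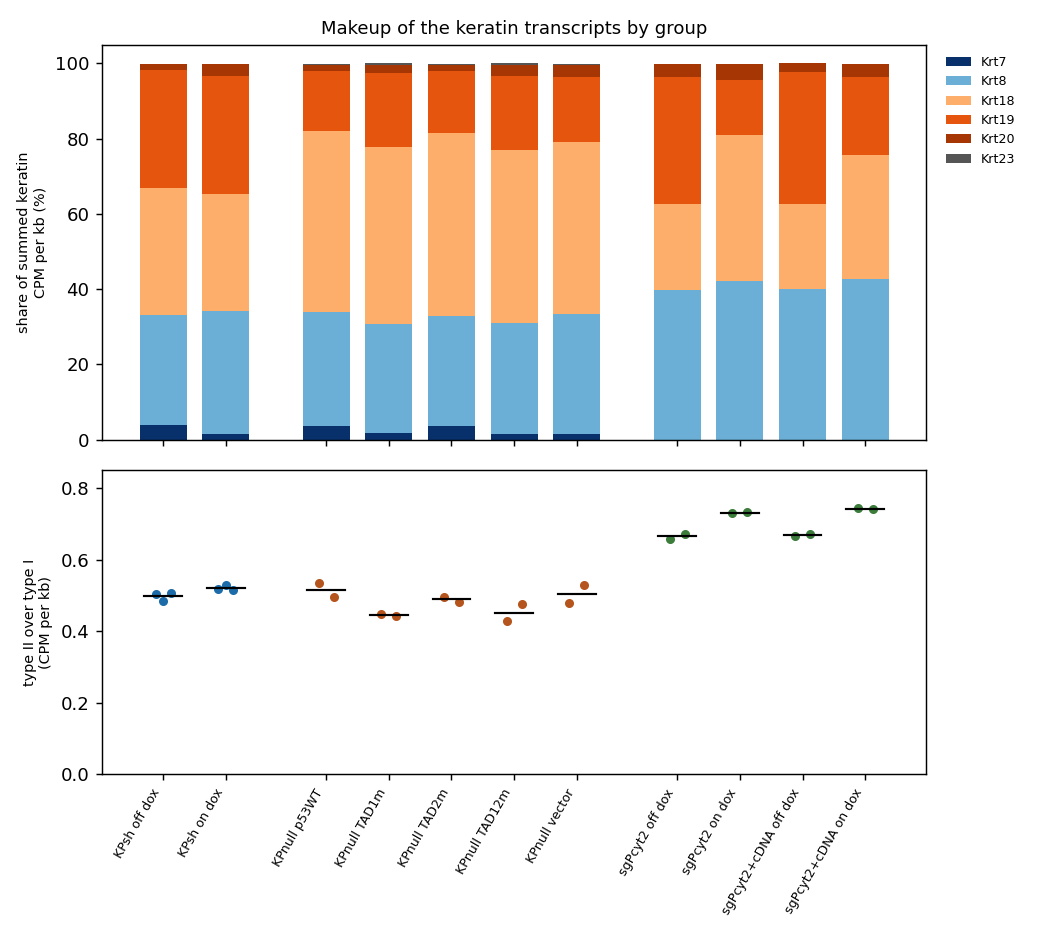
Top, share (%) of the summed keratin level, in CPM per kilobase, held by each of the 6 keratins, as group means. Bottom, ratio of summed type II to summed type I keratin level, 1 point per library. Krt19 holds 31.4% and 31.6% in the KPsh groups and 14.6% to 35.2% in the Pcyt2 groups, and all Pcyt2 libraries lie above all other libraries in the ratio.

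The first comparison asks what restoring p53 for 10 days did in KPsh cells. Restoration by withdrawal of doxycycline was accompanied by higher Krt7, Krt8, Krt18, Krt19 and Krt23, and by small decreases of Krt20 and Cdh1. All 7 members tested passed edgeR's quasi-likelihood test at an adjusted p under 0.05, 5 of them higher and 2 lower. Of all 13990 genes tested, 33.1% were called higher and 31.7% lower, and against that background the number of calls is not a result about the members. The median change of the 7 members was 0.86 on the log2 scale, with the median of all genes between -0.02 and 0.02 in every comparison.

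Krt7 measured 975, 943 and 1048 CPM in the 3 libraries off doxycycline, against 228, 235 and 205 CPM on it. The groups were far apart. The log2 change of 2.15 ± 0.06 (± SE derived from the test's F statistic, n = 3 per group) had an adjusted p of 7.85e-18 by edgeR. Krt8, its type II relative, had 4044, 3954 and 4267 CPM off and 2527, 2577 and 2430 CPM on doxycycline, a log2 change of 0.70 ± 0.05. Krt18, the partner of Krt8, had 3342, 3435 and 3537 CPM off and 1812, 1788 and 1691 CPM on it, a change of 0.96 ± 0.05. Both keratins of the basic pair were thus higher in every library off the drug than in any library on it. Krt19 had 3475, 3508 and 3651 CPM off and 1948, 1961 and 1940 CPM on doxycycline, with a change of 0.86 ± 0.05. The scarce Krt23 averaged 11.1 ± 0.824 CPM off and 5.79 ± 0.902 CPM on it, with a change of 0.92 ± 0.15.

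Krt20 and Cdh1 went the other way by much less. Krt20 measured 211, 200 and 208 CPM off doxycycline, against 238, 236 and 220 CPM on it, a log2 change of -0.17 ± 0.05 (edgeR adjusted p = 0.0113). Cdh1 had 461, 488 and 475 CPM off and 529, 517 and 520 CPM on it. The 2 groups of Cdh1 did not overlap, and the change of -0.14 ± 0.05 had an adjusted p of 0.025. That call was lost with a term for the replicate number (adjusted p = 0.0555) and without replicate 1 of the cells off doxycycline (change -0.11, adjusted p = 0.0798).

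Neighbouring gene groups in KPsh cells moved in several directions, beside 33.1% of all genes called higher and 31.7% lower. Of the 9 tested epithelial surface proteins, 7 rose and none fell, with a median of 0.66: Itgb4, the integrin subunit of hemidesmosomes where keratin filaments are anchored, rose by 3.54 ± 0.06, Cd24a by 0.93 ± 0.05 and the protease inhibitor Spint2 by 0.66 ± 0.08. Of 12 tested desmosome and cytolinker genes, 7 rose and 3 fell (median 0.29). Pkp1, a plakophilin, rose by 2.21 ± 0.18 and the p53 target Perp by 0.76 ± 0.06, while the cytolinker Ppl fell by 0.70 ± 0.06. Among 11 adherens junction genes, 6 rose and 4 fell (median 0.17), with Jup (plakoglobin) at 1.24 ± 0.06 and Ctnnb1 (beta-catenin) at 0.67 ± 0.05 opposite to Vcl (vinculin), which fell by 0.74 ± 0.06.

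Tight junction genes were split, with 4 higher, 5 lower and 6 not called of 15 (median 0.01). For this and the next lists the shares of all genes are again 33.1% higher and 31.7% lower. Cldn6 rose by 1.73 ± 0.06 and Cldn2 by 1.13 ± 0.06, and the scaffold Tjp1 fell by 0.64 ± 0.06. The epithelial transcription factors and splicing regulators gave 0 higher and 7 lower of 8 (median -0.54), among them Cdx2 at -0.68 ± 0.07 and Elf3 at -0.59 ± 0.08. Of the 5 tested repressors of epithelial genes, Snai2 rose by 0.91 ± 0.18 and Zeb2 by 0.67 ± 0.14, and the other 3 fell, Twist2 by 1.86 ± 0.18. All 6 tested mesenchymal filament, cadherin and matrix genes rose (median 1.21), among them Col5a2 by 2.07 ± 0.19, Fn1 (fibronectin) by 1.46 ± 0.10, Sparc by 1.46 ± 0.08 and N-cadherin (Cdh2), the mesenchymal counterpart of Cdh1, by 0.95 ± 0.06. Of the 12 other keratins 6 were tested and 3 rose, Krt4, Krt6a and Krt14, which are named here after their values were seen and had means under 5 CPM. Krt80, the most abundant of them, had 63.6 ± 2.12 CPM off and 61.7 ± 2.76 CPM on doxycycline.

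The second experiment put p53 back into cells without it. In KPnull cells with p53WT, Krt7, Krt8, Krt18 and Krt19 were higher than with vector, and Krt20 and Cdh1 were lower. Of 7 members tested, 4 rose, 2 fell and 1 was not called, with a median of 0.54, while 25.5% of all 15075 genes tested were called higher and 25.1% lower. Krt7 had 570 and 532 CPM with p53WT and 155 and 164 CPM with vector, a log2 change of 1.79 ± 0.09 (edgeR adjusted p = 3.24e-09, n = 2 per group). Krt18 had 3003 and 2877 CPM with p53WT and 1776 and 1810 CPM with vector, a change of 0.71 ± 0.05 (adjusted p = 1.54e-08). Both were far outside the spread of their duplicates.

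Krt8 and Krt19 varied more between duplicates. Krt8 had 2699 and 2373 CPM with p53WT, against 1575 and 1844 CPM with vector (0.57 ± 0.12, edgeR adjusted p = 0.00406), and Krt19 had 1119 and 1038 CPM, against 682 and 803 CPM (0.54 ± 0.12, adjusted p = 0.00556). Their libraries still did not overlap. Cdh1 had 985 and 1034 CPM with p53WT and 1288 and 1272 CPM with vector, a decrease of 0.34 ± 0.05 (adjusted p = 3.14e-05), and Krt20 decreased by 0.21 ± 0.06, at 140 ± 0.815 CPM with p53WT and 162 ± 3.24 CPM with vector. Krt23 averaged 17.1 ± 0.55 CPM with p53WT and 20 ± 1.15 CPM with vector, and its change of -0.23 ± 0.10 was not called (adjusted p = 0.0773).

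The transactivation mutants ask which part of p53 each gene needs to respond. The first transactivation domain is required for most of the strong target activation by p53 after acute DNA damage, and mutation of both domains leaves p53 largely without transactivation. All comparisons with vector share the same 2 vector libraries, so their values are given side by side. With TAD2m, 4 members rose and 3 fell against vector (median 0.50), beside 24.9% and 24.2% of all genes. With TAD1m, 0 rose, 3 fell and 4 were not called (median -0.16), beside 19% and 17.5%. With TAD12m, 0 rose and 1 fell (median -0.13), beside 2.00% and 1.85%.

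Krt7 measured 563 and 532 CPM with TAD2m, 157 and 160 CPM with TAD1m, and 122 and 153 CPM with TAD12m, against 155 and 164 CPM with vector. The TAD1m and vector libraries overlapped. The log2 change against vector was 1.78 ± 0.09 for TAD2m (edgeR adjusted p = 3.66e-09), -0.01 ± 0.09 for TAD1m (adjusted p = 0.95) and -0.21 ± 0.09 for TAD12m (adjusted p = 0.303). Without replicate 2 of the TAD12m cells the last of these became -0.39 with an adjusted p of 0.00228. Krt18 had 2992 and 2920 CPM with TAD2m, 1791 and 1837 CPM with TAD1m and 1646 and 1788 CPM with TAD12m, against 1776 and 1810 CPM with vector. Of these, TAD2m was apart from vector, with a change of 0.72 ± 0.05 (adjusted p = 1.43e-08), and the changes of 0.02 ± 0.05 and -0.06 ± 0.05 for TAD1m and TAD12m were not called.

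Krt8 averaged 2415 ± 106 CPM with TAD2m, 1528 ± 6.53 CPM with TAD1m and 1517 ± 250 CPM with TAD12m, against 1709 ± 190 CPM with vector. For Krt19 the averages were 1097 ± 61.5, 832 ± 3.54 and 809 ± 141 CPM, against 743 ± 85.6 CPM with vector. Against vector, TAD2m changed Krt8 by 0.50 ± 0.12 (edgeR adjusted p = 0.00839) and Krt19 by 0.56 ± 0.12 (adjusted p = 0.00462). The Krt8 call was lost without replicate 1 of the vector cells (0.39, adjusted p = 0.0527). The changes of Krt8 with TAD1m (-0.16 ± 0.12) and TAD12m (-0.17 ± 0.12) and of Krt19 (0.17 ± 0.12 and 0.12 ± 0.12) were not called.

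Cdh1 and Krt20 followed another pattern in which TAD1m was the lowest group. Krt23 also had its lowest KPnull mean with TAD1m, but its TAD1m and TAD12m libraries overlapped. Cdh1 had 837 and 872 CPM with TAD1m, 1023 and 1031 CPM with TAD2m, and 1188 and 1149 CPM with TAD12m, against 1288 and 1272 CPM with vector. The decrease against vector was 0.58 ± 0.05 for TAD1m (edgeR adjusted p = 1.74e-07) and 0.32 ± 0.05 for TAD2m (adjusted p = 7.02e-05), and the change of -0.13 ± 0.05 for TAD12m was not called (adjusted p = 0.23). Krt20 averaged 111 ± 0.0391 CPM with TAD1m, 142 ± 4.24 CPM with TAD2m and 150 ± 5.91 CPM with TAD12m, against 162 ± 3.24 CPM with vector. It decreased by 0.55 ± 0.06 with TAD1m and by 0.19 ± 0.06 with TAD2m, and the second call was lost without replicate 1 of the TAD2m cells (adjusted p = 0.0974). Krt23 averaged 12.9 ± 0.118 CPM with TAD1m, 16.3 ± 0.944 CPM with TAD2m and 13.6 ± 1.65 CPM with TAD12m, against 20 ± 1.15 CPM with vector. It decreased by 0.63 ± 0.11 with TAD1m, by 0.30 ± 0.11 with TAD2m and by 0.56 ± 0.10 with TAD12m. The TAD12m call was lost when only the compared groups were fitted (adjusted p = 0.0709) and without replicate 1 of vector (adjusted p = 0.0566), and the TAD2m call was lost in DESeq2 (adjusted p = 0.169) and, among others, without replicate 1 of the TAD2m cells (adjusted p = 0.196).

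Set directly against p53WT, whose 2 libraries these comparisons share, TAD1m had all 7 tested members lower (median -0.40), beside 20.4% of all genes called higher and 18.7% lower. Krt7 was lower by a log2 change of -1.80 ± 0.09 (edgeR adjusted p = 7.5e-09), Krt8 by -0.73 ± 0.12 (adjusted p = 0.00149) and Krt18 by -0.70 ± 0.05 (adjusted p = 4.12e-08). Cdh1 was lower as well, by -0.24 ± 0.05 (adjusted p = 0.00129), and so was Krt20, by -0.33 ± 0.06 (adjusted p = 0.000169). Trp53 RNA itself did not pass the test between TAD1m and p53WT (-0.07 ± 0.06, adjusted p = 0.448). The lower Krt19 (-0.37 ± 0.12, adjusted p = 0.0385) was lost when any 1 of the 4 libraries was left out (adjusted p = 0.0745 to 0.176), and Krt23 (-0.40 ± 0.11, adjusted p = 0.00785) was lost without replicate 2 of p53WT (adjusted p = 0.053).

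TAD12m against p53WT had 1 member higher and 5 lower (median -0.41), beside 25.5% of all genes higher and 25.6% lower. Krt7 changed by -2.00 ± 0.09 (edgeR adjusted p = 1.24e-09), Krt8 by -0.74 ± 0.12 (adjusted p = 0.000951) and Krt18 by -0.78 ± 0.05 (adjusted p = 6.28e-09), while Cdh1 was higher by 0.21 ± 0.05 (adjusted p = 0.00247). Krt20 was not called (0.10 ± 0.06, adjusted p = 0.158). Trp53 RNA was lower with TAD12m than with p53WT (-0.24 ± 0.06, edgeR adjusted p = 0.00438), and its part in these differences was not tested. The lower Krt19 (-0.41 ± 0.12, adjusted p = 0.0196) was lost without replicate 1 of p53WT (adjusted p = 0.107), and Krt23 (-0.33 ± 0.11, adjusted p = 0.0177) in DESeq2 (adjusted p = 0.0819), without replicate 2 of TAD12m (adjusted p = 0.155) and without replicate 2 of p53WT (adjusted p = 0.0932).

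TAD2m and p53WT could not be told apart in any of the 7 members, whose libraries all overlapped. The changes lay between -0.07 and 0.02 with standard errors of 0.05 to 0.12. The smallest unadjusted p of a member was 0.546, and 0 members were called by edgeR or DESeq2. Few genes of any kind were called between these groups, 0.199% higher and 0.0862% lower. Trp53 RNA was among those called lower with TAD2m (-0.34 ± 0.06, edgeR adjusted p = 0.0242). A p over the threshold does not show that the 2 forms act alike, and the standard error of 0.12 leaves Krt8 and Krt19 the least precise.

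**Figure D3:**
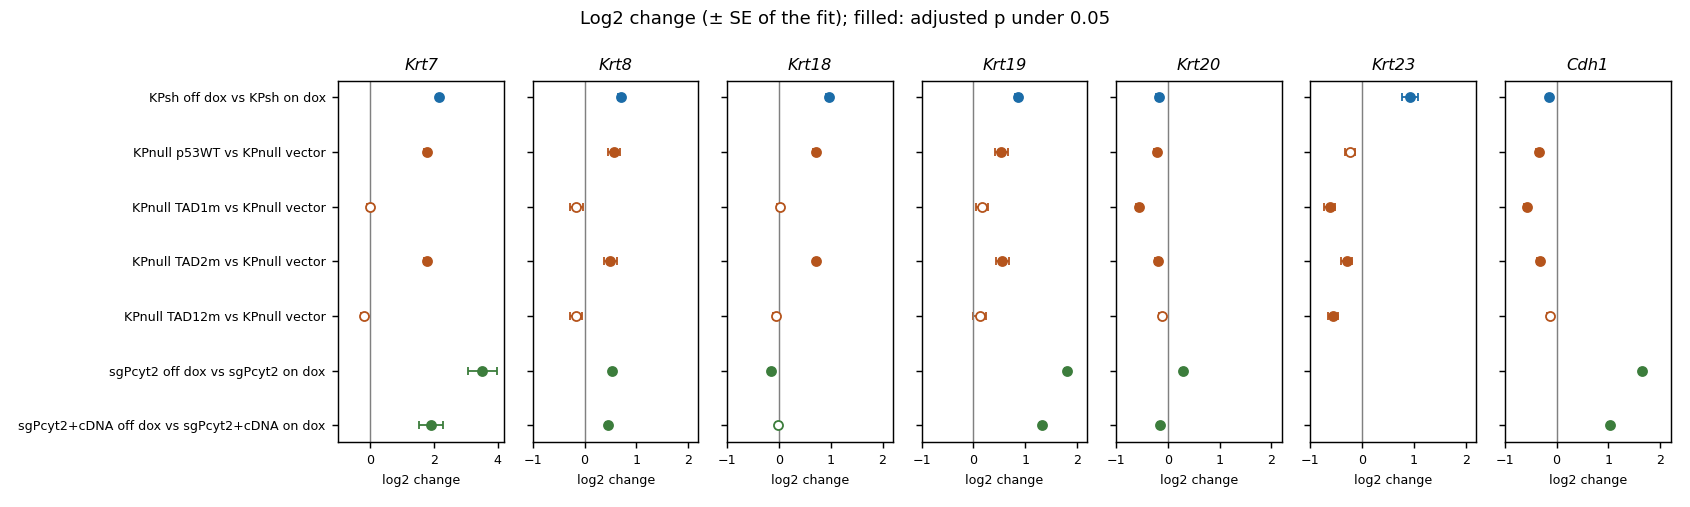
Log2 change ± SE of each tested member in 7 comparisons, from edgeR. Filled points passed an adjusted p under 0.05. Krt7 is at 2.15, 1.79 and 1.78 in KPsh off against on doxycycline, p53WT against vector and TAD2m against vector, and at -0.01 and -0.21 in TAD1m and TAD12m against vector.

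Some neighbouring junction genes were higher than vector with TAD1m as well. Itgb4 was higher than vector by 4.03 ± 0.11 with p53WT, 3.25 ± 0.11 with TAD2m and 3.68 ± 0.11 with TAD1m, and by 1.10 ± 0.12 with TAD12m. Jup was higher by 1.49 ± 0.11 with p53WT, 1.38 ± 0.11 with TAD2m and 1.53 ± 0.11 with TAD1m. Cldn6, a claudin best known from embryonic epithelia, was higher by 1.21 ± 0.06, 1.18 ± 0.06 and 0.79 ± 0.06 with these forms and by 0.52 ± 0.06 with TAD12m. Perp was higher by 0.92 ± 0.05 with p53WT, 0.86 ± 0.05 with TAD2m and 0.65 ± 0.05 with TAD1m.

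By list, p53WT against vector gave 6 higher and 3 lower of 12 adherens junction genes (median 0.19) and 6 and 1 of 15 tight junction genes (median -0.01). It gave 5 and 2 of 12 desmosome and cytolinker genes (median 0.09) and 6 and 0 of 8 surface proteins (median 0.37). These counts stand beside 25.5% of all genes called higher and 25.1% lower. The epithelial transcription factors and splicing regulators gave 1 higher and 5 lower of 8, with Elf3 at -0.66 ± 0.07 and Grhl3 at 1.21 ± 0.19. None of the 4 tested other keratins was called, Krt80 standing at 129 ± 4.54 CPM with p53WT and 129 ± 18.2 CPM with vector. With TAD1m, 8 of 15 tight junction genes fell and 2 rose (median -0.23), among them Lsr, which marks tricellular junctions, at -0.73 ± 0.10. With the same mutant the surface mucin Muc1 fell by 0.89 ± 0.05. The mesenchymal genes Fn1 (fibronectin) and Cdh2 rose with p53WT by 2.13 ± 0.07 and 0.74 ± 0.06, as 3 of the 6 tested genes of their list did.

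The third experiment restored p53 for 6 days in KPsh cells edited at Pcyt2. Withdrawal of doxycycline was accompanied by higher Krt8, Krt19 and Cdh1, with and without the Pcyt2 cDNA, and Krt18 differed little. Trp53 rose by 1.00 ± 0.08 in sgPcyt2 cells and by 2.21 ± 0.07 with the cDNA. Of the 7 members tested, 5 rose, 1 fell and 1 was not called in sgPcyt2 cells (median 0.53), beside 39.2% and 37.1% of all 14916 genes tested. With the cDNA 4 rose, 1 fell and 2 were not called (median 0.46), beside 37.3% and 36.3%. Krt7, near the floor on doxycycline, is counted among the members that rose in both.

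Cdh1 had 1294 and 1275 CPM off and 401 and 415 CPM on doxycycline in sgPcyt2 cells, a log2 change of 1.65 ± 0.04 (edgeR adjusted p = 5.3e-36). With the cDNA it had 1031 and 1044 CPM off and 512 and 505 CPM on it, a change of 1.03 ± 0.04 (adjusted p = 4.63e-28). Krt19 had 2903 and 3108 CPM off and 877 and 832 CPM on doxycycline in sgPcyt2 cells (1.81 ± 0.04, adjusted p = 6.01e-36). With the cDNA the Krt19 level was 3455 and 3463 CPM off and 1398 and 1380 CPM on it (1.32 ± 0.04, adjusted p = 1.08e-30). In both genes and both cell populations, the libraries off the drug were far above those on it.

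Krt8 rose by 0.53 ± 0.04 in sgPcyt2 cells, at 4407 ± 270 CPM off and 3055 ± 28.7 CPM on doxycycline, and by 0.46 ± 0.04 with the cDNA, at 4883 ± 23.1 CPM off and 3560 ± 4.9 CPM on it. Krt18 had 1767 and 1915 CPM off and 2059 and 2052 CPM on doxycycline in sgPcyt2 cells, a change of -0.16 ± 0.04 (edgeR adjusted p = 0.000463). With the cDNA it had 2024 and 2009 CPM off and 2022 and 2048 CPM on it, groups that overlapped (-0.01 ± 0.04, adjusted p = 0.779). Krt20 rose by 0.29 ± 0.04 in sgPcyt2 cells, at 383 ± 10.5 CPM off and 313 ± 6.28 CPM on doxycycline. With the cDNA it was lower, at 264 ± 4.31 CPM off and 292 ± 3.58 CPM on it (-0.15 ± 0.04, adjusted p = 0.000998).

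Krt7 was near the floor in these cells. It had 2.4 and 2.26 CPM off and 0.19 and 0.204 CPM on doxycycline in sgPcyt2 cells, which are 67.5 and 6.0 counts summed over the duplicates. The ratio of CPM was 11.9, with a 95% exact conditional interval of 5.22 to 33.7 that covers counting error only. With the cDNA Krt7 had 1.83 and 1.87 CPM off and 0.515 and 0.472 CPM on it, or 58.0 and 14.5 summed counts, a ratio of 3.77 (interval 2.04 to 6.93). In edgeR, Krt7 was called higher in both, with adjusted p of 1.74e-09 and 2.06e-05.

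The sgPcyt2 cells were compared with sgPcyt2+cDNA cells, in which Pcyt2 RNA stood far above its level in unedited KPsh cells, so that effects of the edit and of high Pcyt2 cannot be told apart. On doxycycline, with p53 silenced, 3 members were lower in sgPcyt2 cells, 0 higher and 4 not called (median -0.22), beside 8.40% of all genes higher and 10.0% lower. Krt19 was lower by -0.70 ± 0.04 (edgeR adjusted p = 2.21e-18), at 854 ± 31.9 CPM in sgPcyt2 and 1389 ± 13.2 CPM in sgPcyt2+cDNA cells. Cdh1 was lower by -0.32 ± 0.04 (adjusted p = 5.92e-09) and Krt8 by -0.22 ± 0.04 (adjusted p = 5.78e-05). Trp53 was not called between these groups (0.08 ± 0.09, adjusted p = 0.636).

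Off doxycycline, 2 members were higher and 3 lower in sgPcyt2 cells (median 0.31), beside 16.3% of all genes higher and 16.8% lower. Cdh1 was now higher in sgPcyt2 cells, by 0.31 ± 0.04 (edgeR adjusted p = 2.59e-09), with 1284 ± 13.2 CPM, against 1037 ± 9.15 CPM with the cDNA. Krt20 was higher by 0.54 ± 0.04 (adjusted p = 1.59e-15), with 383 ± 10.5 CPM, against 264 ± 4.31 CPM. Krt19 was lower by -0.20 ± 0.04 (adjusted p = 7.59e-05). The lower Krt8 (-0.15 ± 0.04, adjusted p = 0.00391) was lost without replicate 1 of the sgPcyt2 cells off doxycycline (adjusted p = 0.0865) or replicate 2 of the cDNA cells off it (adjusted p = 0.059). Krt18 (-0.13 ± 0.04, adjusted p = 0.00895) was lost without either of these libraries (adjusted p = 0.169 and 0.0604) or without replicate 1 of the cDNA cells off doxycycline (adjusted p = 0.0925). Trp53 was lower in sgPcyt2 cells off doxycycline by -1.13 ± 0.07.

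The difference between the 2 responses to withdrawal was tested as an interaction. It was positive and called for Cdh1 (0.63 ± 0.05, edgeR adjusted p = 2.39e-13), Krt19 (0.50 ± 0.06, adjusted p = 1.93e-09) and Krt20 (0.44 ± 0.06, adjusted p = 1.83e-08), so that these 3 of 7 tested members rose more, or fell less, on withdrawal in sgPcyt2 cells than with the cDNA. Over all genes 12.8% had a positive and 12.4% a negative interaction, and the median of the members was 0.50. The interaction of Trp53 had the opposite sign, -1.21 ± 0.12 (adjusted p = 9.66e-12), and its part in the result was not tested. That of Krt18 was not called (-0.15 ± 0.06, adjusted p = 0.0535), but was in DESeq2 (adjusted p = 0.039), with DESeq2's size factors in edgeR (adjusted p = 0.0495), without a filter on low counts (-0.19, adjusted p = 0.00872) and without replicate 2 of the sgPcyt2 cells off doxycycline (-0.24, adjusted p = 0.000154).

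The listed epithelial regulators moved in both directions in the Pcyt2 set. On withdrawal in sgPcyt2 cells, 5 of 8 epithelial transcription factors and splicing regulators rose and 1 fell (median 0.77), beside 39.2% and 37.1% of all genes. Elf3, an ETS factor of epithelia, was at 3.75 ± 0.10 and Klf4 at 2.49 ± 0.06. With the cDNA 4 rose and 2 fell (median 0.44), beside 37.3% and 36.3% of all genes, with Elf3 at 1.62 ± 0.09 and Klf4 at 0.86 ± 0.05. Elf3 and Klf4 had positive interactions, 2.14 ± 0.15 and 1.63 ± 0.08. Cdx2 was lower off doxycycline, at 57.4 ± 5.07 CPM off and 83.1 ± 4.88 CPM on it in sgPcyt2 cells. With the cDNA it had 86.3 ± 2.03 CPM off and 96.7 ± 5.93 CPM on it. Of the 5 tested repressors of epithelial genes, 4 fell and 1 rose in sgPcyt2 cells (median -1.04), Snai2 falling by 1.34 ± 0.17 and Twist1 by 1.13 ± 0.15. With the cDNA 3 fell and 1 rose (median -0.65), Twist1 falling by 2.00 ± 0.18. Zeb2 fell by 0.72 ± 0.11 in sgPcyt2 cells and rose by 0.30 ± 0.11 with the cDNA, an interaction of -1.02 ± 0.16.

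Among junction genes, 8 of 15 tight junction genes rose and 4 fell in sgPcyt2 cells (median 0.17), and 10 rose and 3 fell with the cDNA (median 0.31). The counts in these lists stand beside 39.2% of all genes higher and 37.1% lower in sgPcyt2 cells, and 37.3% and 36.3% with the cDNA. Occludin (Ocln) rose by 1.98 ± 0.06 and 1.15 ± 0.06, with an interaction of 0.83 ± 0.09. Cldn6 fell by 1.11 ± 0.05 in sgPcyt2 cells. With the cDNA Cldn6 was higher off the drug, at 214 ± 0.225 CPM off and 151 ± 1.31 CPM on doxycycline. The interaction of Cldn6 was -1.61 ± 0.07. Adherens junction genes gave 5 higher and 3 lower of 9 in both cell populations, with Ctnnb1, the partner of E-cadherin, at 1.47 ± 0.04 in sgPcyt2 cells and 1.26 ± 0.04 with the cDNA. Of the 10 tested desmosome and cytolinker genes, 6 rose and 3 fell in sgPcyt2 cells, and 6 rose and 2 fell with the cDNA. Desmoplakin (Dsp), which ties keratin filaments to desmosomes, rose by 1.49 ± 0.04 and 1.05 ± 0.04. Pkp4 was lower off doxycycline, at 168 ± 0.747 CPM off and 224 ± 8.45 CPM on it in sgPcyt2 cells. With the cDNA it had 146 ± 4.21 CPM off and 242 ± 3.49 CPM on it. Itgb4 rose by 3.04 ± 0.05 and 2.73 ± 0.04. Krt80 fell by 1.41 ± 0.09 in sgPcyt2 cells and by 1.02 ± 0.07 with the cDNA, at 16.1 ± 0.212 CPM off and 42.8 ± 0.124 CPM on doxycycline in sgPcyt2 cells. Of the 5 tested mesenchymal genes, 4 fell and 1 rose in sgPcyt2 cells (median -0.52), with Sparc at -1.69 ± 0.20 and Cdh2 at -0.52 ± 0.05. With the cDNA 2 fell and 1 rose (median -0.04). Fn1 was higher off than on doxycycline in both cell populations. It had 258 ± 17.1 CPM off and 206 ± 9.76 CPM on it in sgPcyt2 cells, and 198 ± 7.96 and 95.6 ± 6.07 CPM with the cDNA.

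Both KPsh experiments withdrew the drug, for 10 days in the unedited and 6 days in the Pcyt2-edited cells, and the members' changes stand side by side without a test across tables. Krt8 had 0.70 ± 0.05 in KPsh cells, 0.53 ± 0.04 in sgPcyt2 cells and 0.46 ± 0.04 in sgPcyt2+cDNA cells. Krt19 had 0.86 ± 0.05, 1.81 ± 0.04 and 1.32 ± 0.04. Krt18 had 0.96 ± 0.05, -0.16 ± 0.04 and -0.01 ± 0.04, and Cdh1 had -0.14 ± 0.05, 1.65 ± 0.04 and 1.03 ± 0.04. Krt7 had 2.15 ± 0.06, 3.52 ± 0.45 and 1.9 ± 0.38, the last 2 from counts near the floor. Krt20 had -0.17 ± 0.05, 0.29 ± 0.04 and -0.15 ± 0.04. Krt7, Krt8 and Krt19 were thus called higher in all 3 cell populations. Krt20 was called higher in sgPcyt2 cells and lower in the other 2 populations. Krt18 was called higher in KPsh cells and lower in sgPcyt2 cells, and Cdh1 lower in KPsh cells and higher in both edited populations.

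Epcam, Cldn4 and Cldn7 are usual epithelial surface and junction genes and had almost no reads in these cells. The floor of 3 counts corresponds to 0.231 to 0.319 CPM in KPsh, 0.154 to 0.22 CPM in KPnull and 0.175 to 0.217 CPM in Pcyt2 libraries. Epcam had 9.5, 15 and 10 counts off and 7, 6.5 and 10.5 counts on doxycycline in KPsh cells, and 0 to 3 counts in every KPnull library. It was tested in the Pcyt2 set alone and called in none of the comparisons there, with 11 and 12.5 counts off and 10 and 10 on doxycycline in sgPcyt2 cells (0.33 ± 0.45, edgeR adjusted p = 0.513). With the cDNA it had 6 and 5 counts off and 7 and 12 on doxycycline (-0.81 ± 0.54, adjusted p = 0.172).

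Cldn4 never had more than 6.5 counts, and 11 of the 24 libraries were at 0. Its 3 KPsh libraries on doxycycline were at 0, beside 0, 3.0 and 2.0 counts off it. The highest counts, 5.0 and 6.5, were in sgPcyt2+cDNA cells off doxycycline and 6.0 in 1 of the p53WT libraries. Cldn7 had at most 6.0 counts, in a vector library, and 7 libraries at 0. Cldn4 summed to 11.5 counts off and 1.0 on doxycycline with the cDNA, and to 8.0 with p53WT and 1.0 with vector. Both claudins failed the filter on low counts, and their differences between groups were not tested.

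**Figure D4:**
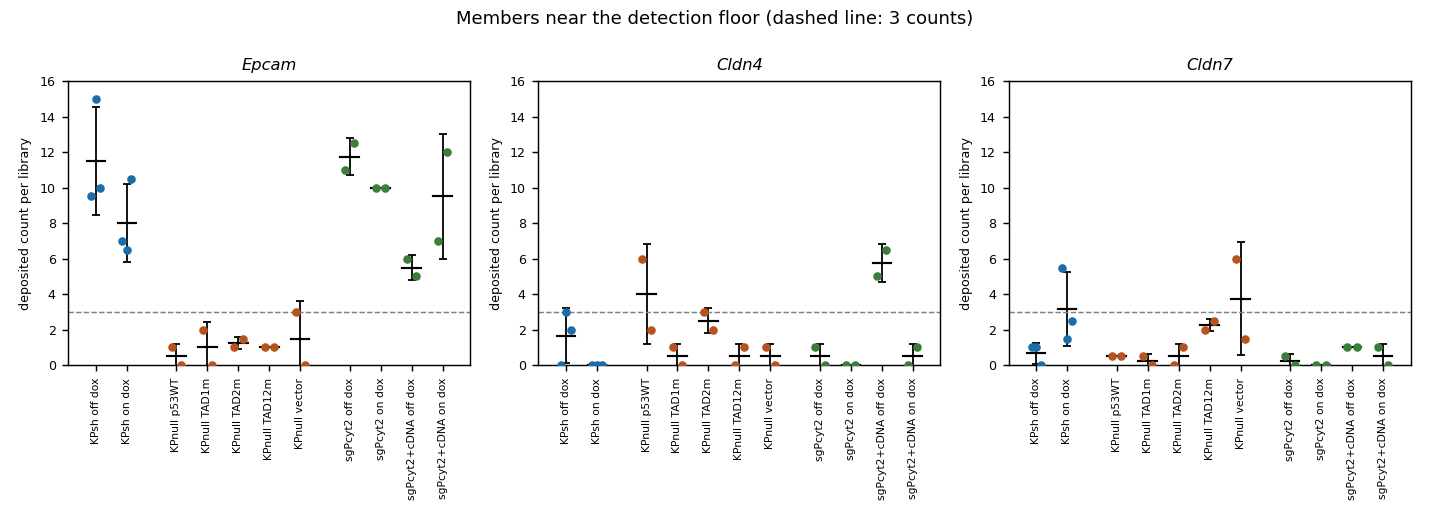
Deposited counts per library of Epcam, Cldn4 and Cldn7, by group, with a dashed line at the floor of 3 counts. Epcam reaches 15 counts in KPsh cells off doxycycline and stays at or below 3 in all KPnull libraries, while Cldn4 and Cldn7 stay at or below 6.5 counts everywhere.

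Likeness of pattern was measured as Pearson's correlation of log2(CPM + 1) group means over the 11 groups, after centring within each table, across 13148 other genes that passed the filter in all 3 tables. The groups of a table share a scaling and a line of cells, and the values are a description. Krt7, Krt19 and Cdh1 had the widest ranges. Genes most like Krt7 were Gm45208 (r = 0.99), Tex264, a receptor for selective autophagy of the endoplasmic reticulum (0.988), and the triglyceride lipase Pnpla2 (0.984). For Krt19 they were the transcription factor Glis2 (0.987), the ciliary transport gene Ift52 (0.984) and Htatip2 (0.984), and for Cdh1 Gm49172 (0.985), the ascorbate transporter Slc23a2 (0.983) and Fn3krp (0.983). Within the set, Krt7 was most like Krt8 (0.975), then Krt18 (0.85) and Krt19 (0.756), and little like Krt20 (-0.017). Krt7 lay at 0.19 to 2.4 CPM in the Pcyt2 set, so its pattern there, and with it these correlations, depends on the 1 added before the logarithm. Cdh1 was most like Krt19 (0.762) and had -0.193 with Krt18.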

How the data were processed

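RNA was extracted with TRIzol and made into stranded poly(A) libraries, per the labels' protocols. The deposited values are expected counts per gene and library, in steps of 0.5, which the authors did not normalize. Per the submitters' processing notes, STAR 2.6.1c and HOMER were used on mm10. Per the file headers, HOMER counted exon reads of GENCODE vM25 on both strands for 1 transcript per gene. Columns were matched to samples by name. KPsh columns named by a day alone were taken as off doxycycline, and columns named for wild-type Pcyt2 as the cDNA cells, both by elimination; Trp53 and Pcyt2 levels fit. All KPnull libraries were taken as treated with doxycycline, as in the growth protocol, although the design text also mentions untreated cells. No column was left unused.

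Counts were rounded to whole numbers (at most 0.0533% of a library). Within each table, edgeR 4.0.16 (R 4.3.3, limma 3.58.1) with TMM scaling (factors 0.979 to 1.02), filterByExpr and robust quasi-likelihood tests gave log2 changes, with Benjamini-Hochberg adjustment over all 13990, 15075 or 14916 genes tested and a threshold of 0.05. All groups of a table shared 1 spread (4, 5 and 4 residual degrees of freedom in KPsh, KPnull and Pcyt2). The SE of a log2 change was derived from edgeR's test, as the absolute change divided by the square root of its F statistic. CPM use the TMM-scaled library size, and means are given ± SD. Differences between replicate libraries exceeded sampling noise (chi-square per degree of freedom 1.73 to 7.41), and intervals and floors cover counting error only. The 3-count floor is per library.

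The members and gene lists were chosen with earlier results of these data known. The text names all members, Trp53 and Pcyt2, and from each list up to 4 called genes with the largest absolute log2 change and at least 5 CPM, or the 2 most abundant where none passed, leaving some out; for pattern likeness it names the 3 best genes for the 3 members of widest range. Exon overlaps come from GENCODE vM21 on the same build and promoter windows from RefSeq. Alternatives were DESeq2 1.42.0, its size factors, no filter, rounding down values that end in 0.5, only the compared groups, a replicate block and leaving out each library; a crossed block was added after seeing the data. The tests were checked on simulated data. One marker of the lists is not reported here.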

Additional observations from a re-analysis of the deposited data

Results flagged for a closer look

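The response to withdrawal of doxycycline differed between sgPcyt2 cells and sgPcyt2+cDNA cells for 3 members, by edgeR's test of the interaction. For Cdh1 the difference was 0.63 on the log2 scale (1.65 in sgPcyt2 cells, 1.03 with the cDNA), for Krt19 it was 0.50 (1.81 and 1.32) and for Krt20 0.44 (0.29 and -0.15). All 4 libraries off doxycycline were above all 4 on it for Cdh1 and Krt19. Trp53 changed by 1.00 in sgPcyt2 cells and 2.21 with the cDNA, and its part in the differences was not tested.

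Krt18, Krt20 and Cdh1 moved in opposite directions on withdrawal in sgPcyt2 cells and in unedited KPsh cells, a difference across tables that was not tested. Krt18 changed by -0.16 in sgPcyt2 cells and by 0.96 in KPsh cells, and its change of -0.01 in sgPcyt2+cDNA cells was not called. Krt20 changed by 0.29 in sgPcyt2 cells and by -0.17 in KPsh cells. In sgPcyt2+cDNA cells, which are edited too, Krt20 changed by -0.15, the same direction as in KPsh cells. Cdh1 changed by 1.65 in sgPcyt2 cells and 1.03 in sgPcyt2+cDNA cells, against -0.14 in KPsh cells, where the call was lost under a replicate block. The time off the drug was 6 days in the edited and 10 days in the unedited cells, and the labels do not say whether the edited cells are 1 clone. Krt7, at no more than 2.4 CPM in the edited and at least 205 CPM in the unedited libraries, differed between them as well. Time, editing and any other difference between the cells cannot be told apart.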

How the results depend on the processing

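Over 625 alternative values of the 59 called member changes, 0 changed sign and 25 lost their call, in 11 results that are named in the text. The number of members called for TAD12m against vector was 1, and became 2 without a filter, 0 with only the compared groups, and 0 to 2 with 1 library left out (2 without TAD12m replicate 2, 0 without vector replicate 1). For sgPcyt2 against sgPcyt2+cDNA off doxycycline it was 5, and 3 to 5 with 1 library left out.

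Sign changes were seen only in uncalled changes near 0: Krt18 with the cDNA off against on doxycycline (0.02 without a filter), Krt7 for TAD1m against vector (0.02 with only the compared groups) and Krt7 for TAD2m against p53WT (0.00 without a filter). With 1 library left out, TAD2m against p53WT ranged from -0.06 to 0.04 for Krt7, -0.16 to 0.02 for Krt8, -0.02 to 0.04 for Krt18, -0.03 to 0.08 for Krt19, -0.01 to 0.05 for Krt20 and -0.01 to 0.06 for Cdh1. TAD1m against vector ranged from -0.06 to 0.03 for Krt7 and -0.01 to 0.03 for Krt18, TAD12m against vector from -0.07 to 0.29 for Krt19, Krt18 with the cDNA off against on doxycycline from -0.03 to 0.00, Epcam for sgPcyt2 against sgPcyt2+cDNA on doxycycline from -0.11 to 0.34, and the Krt8 interaction from -0.02 to 0.12. The cause of these shifts was not tested.

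Calls were gained for Krt19 in TAD1m against vector (adjusted p = 0.0285 without a filter), Krt20 in sgPcyt2 against sgPcyt2+cDNA on doxycycline (0.0322 without a filter, 0.0185 with only the compared groups) and Krt7 in TAD12m against vector (0.0446 without a filter).

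Counts over all genes moved by more than 1.5 times for TAD12m against vector (580, then 160 with only the compared groups, 352 without vector replicate 1, 382 without vector replicate 2) and for TAD2m against p53WT (43, then 107 without a filter, 99 with only the compared groups, 13 to 23 with 1 library left out). In DESeq2 the interaction had 2426 calls against 3759 in edgeR, sgPcyt2 against sgPcyt2+cDNA 3116 against 4944 off and 1572 against 2746 on doxycycline, the last being 1680 without replicate 2 of the cDNA cells on the drug.

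Deviations of same-numbered libraries correlated at -0.13 to -0.1 in KPsh and -0.07 to 0.01 in the Pcyt2 set. In KPnull, TAD12m and vector correlated at 0.35 and TAD2m and p53WT at 0.11, and each of the first 2 groups correlated at -0.2 to -0.15 with each of the last 2. With 2 libraries per group and no label that ties the numbers together, the numbers were not taken as pairs. With the replicate block the members called in KPsh went to 6, against 7 without it (Cdh1 adjusted p = 0.0555), and no other member call count changed. A crossed block, which exchanges the numbers of 1 group and was chosen after seeing the data, gave 8262 calls for p53WT against vector (7623 without it), 8569 for TAD2m against vector (7409) and 8567 for TAD12m against p53WT (7714), with 6, 7 and 6 members called as before. Depth limits Epcam, Cldn4, Cldn7 and, in the Pcyt2 set, Krt7 and Krt23, and 2 libraries per group leave Krt8 and Krt19 in KPnull with standard errors of 0.12.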
